A study of Homo sapiens with 15 samples.

Results

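Immune checkpoint ligands are proteins on the surface of tumour cells that restrain or engage T cells, natural killer (NK) cells, and macrophages. The 10 genes examined were CD274, PDCD1LG2, CD276, NT5E, PVR, NECTIN2, CD47, LGALS9, MICA, and MICB, and they were found by symbol among the 60649 genes listed in the count data. RNA was sequenced from HSC-5, an established human cutaneous squamous cell carcinoma line made to express Cas9, after lentiviral infection. The 5 conditions had 3 biological replicates each and comprised the negative control sgNeg, labelled wild type, 2 guides against PRMT5 (sgPRMT5-1 and sgPRMT5-2, labelled PRMT5 knockout), and 2 guides against WDR77 (sgWDR77-1 and sgWDR77-2, labelled WDR77 knockout). All 15 samples were labelled as treated with neomycin. The methods describe infected and selected cells and no derivation of clones, and whether sgNeg, called an empty vector elsewhere by the authors, carried a guide RNA is not given for the sequenced cells. PRMT5 is an arginine methyltransferase, and WDR77 is its binding partner. The libraries held 5146711 to 6730428 counts in genes, and all 10 ligand genes passed the filter on low counts, as did 14056 genes in all.

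CD274 (PD-L1) and PDCD1LG2 (PD-L2) bind the receptor PD-1 on T cells, and CD276 (B7-H3) is a related protein of the B7 family. NT5E (CD73) is an enzyme that makes adenosine outside the cell, a molecule that dampens T cells, while PVR and NECTIN2 are bound by the inhibitory receptor TIGIT and the activating receptor CD226. CD47 signals through SIRPA on macrophages and restrains engulfment, LGALS9 (galectin-9) is a ligand of TIM-3, and MICA and MICB are stress-induced ligands of the activating NK cell receptor NKG2D.

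The targeted genes were examined first, as a check of the labels. PRMT5 stood at 59.1, 49.6, and 67.8 CPM (counts scaled to a common library size) in the sgNeg libraries, at 33, 35.8, and 41.4 CPM with sgPRMT5-1, and at 44.2, 44.5, and 39.4 CPM with sgPRMT5-2. All 6 libraries of the PRMT5 guides lay below the lowest sgNeg library. By limma voom, the log2 fold change of PRMT5 was −0.67 ± 0.132 (SE) with sgPRMT5-1 (adjusted p = 0.0057) and −0.45 ± 0.13 with sgPRMT5-2 (adjusted p = 0.0114). WDR77 stood at 125, 114, and 119 CPM in the sgNeg libraries, at 30.8, 52, and 53.3 CPM with sgWDR77-1, and at 26.6, 24.9, and 22 CPM with sgWDR77-2. Every library of the WDR77 guides lay below every other library for this gene. The log2 fold change of WDR77 was −1.43 ± 0.148 with sgWDR77-1 (limma voom, adjusted p = 2.02e-06) and −2.29 ± 0.165 with sgWDR77-2 (adjusted p = 6.92e-09). Guides edit DNA, so transcript left in these cells is no measure of the protein that remains. WDR77 shares 90 exon bases with ATP5PB on the opposite strand, and reads of these genes cannot be told apart there. WDR77 also shares 673 exon bases with ENSG00000243960 on the same strand, a gene of 0 to 5 counts in a library. PRMT5 shares 924 exon bases with PRMT5-AS1 on the opposite strand, a gene of 0 to 3 counts in a library.

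**Figure D1:**
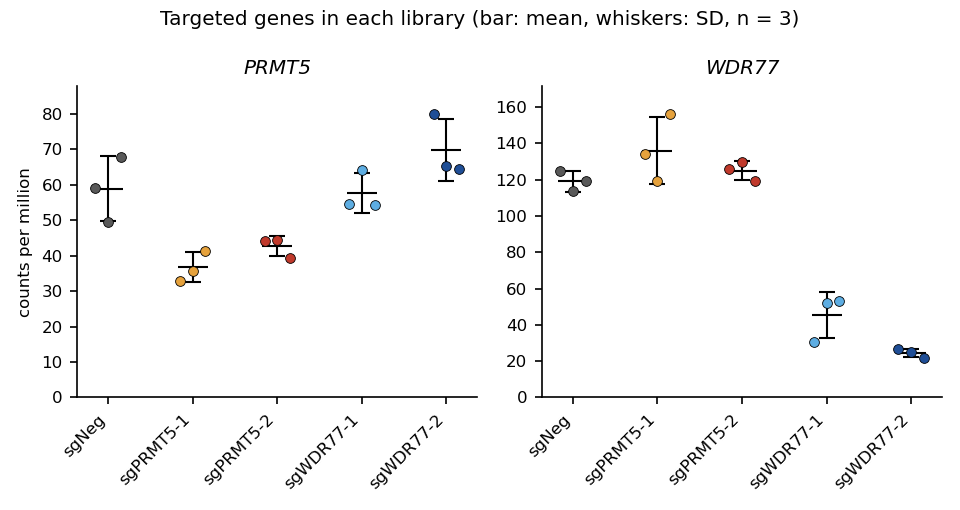
CPM of PRMT5 and of WDR77 in each of the 15 libraries by condition, with points for libraries, bars for the mean of 3, and whiskers for the SD. PRMT5 was lower with both PRMT5 guides (33 to 44.5 CPM) than with sgNeg (49.6 to 67.8 CPM), and WDR77 was lower with both WDR77 guides (22 to 53.3 CPM) than with sgNeg (114 to 125 CPM).

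Each guide was compared with sgNeg, so these 4 comparisons share the same control libraries. With sgPRMT5-2, 8 of the 10 ligand genes passed an adjusted p of 0.05, where 31% of all genes tested did so. CD274, NT5E, PVR, MICA, and MICB rose, and CD276, CD47, and LGALS9 fell. With sgPRMT5-1, 2 ligand genes passed against 2.87% of all genes, and both NT5E and PVR rose. With sgWDR77-1, 2 passed against 9.48% of all genes, and both NT5E and CD274 rose. With sgWDR77-2, 1 passed against 4.8% of all genes, and this was PVR, which rose. The median log2 fold change of the ligand genes was 0.26 with sgPRMT5-2, 0.12 with sgPRMT5-1, 0.18 with sgWDR77-1, and −0.04 with sgWDR77-2. The medians of all genes tested in these comparisons were 0.01, 0.02, −0.01, and 0.02. In bulk RNA, fewer cells that express a gene and less RNA of it per cell cannot be told apart.

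**Figure D2:**
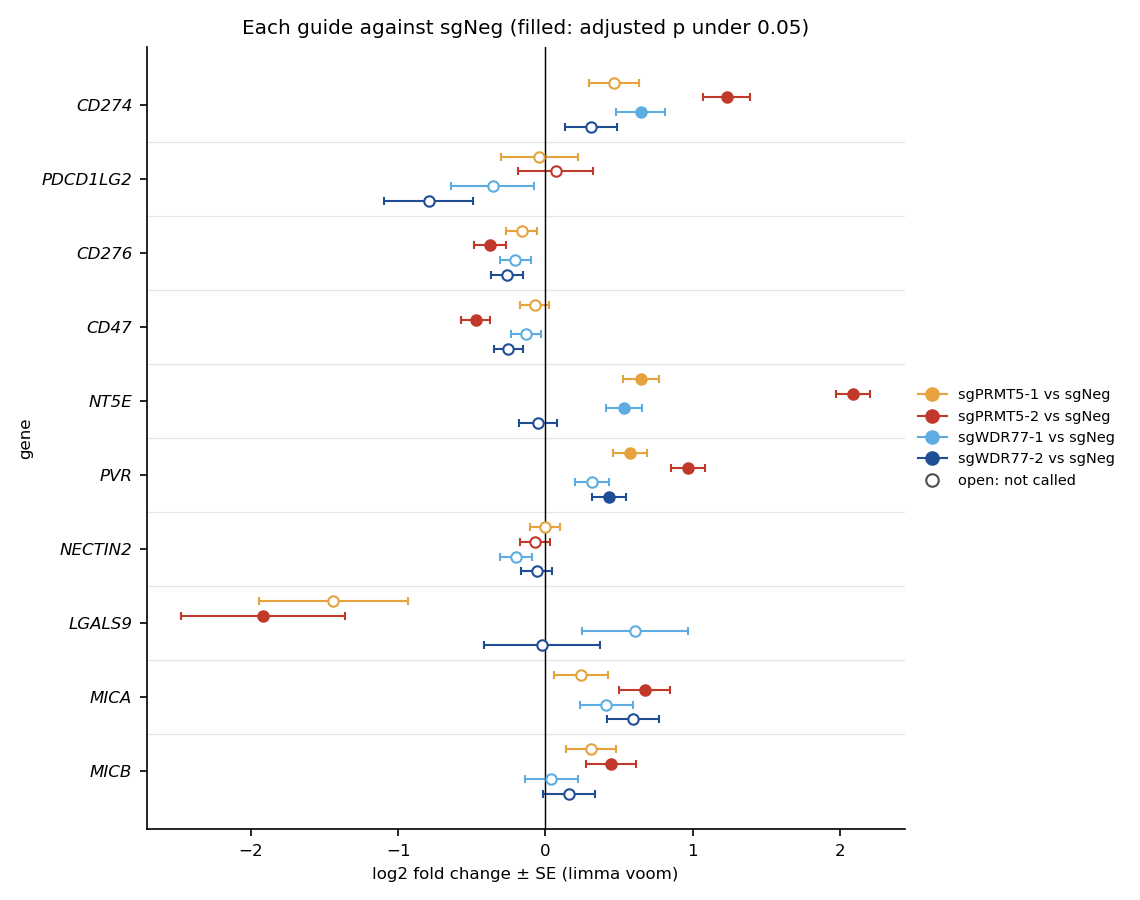
Log2 fold change of each ligand gene in the 4 comparisons of a guide with sgNeg, with bars for the SE and filled points for an adjusted p under 0.05 by limma voom. NT5E with sgPRMT5-2 lay farthest above 0 (2.09) and LGALS9 with sgPRMT5-2 farthest below (−1.92).

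These counts depended on single libraries to differing degrees. For sgPRMT5-1, 404 genes were called in all, and this became 210 without sgNeg replicate 1, 239 without sgNeg replicate 2, 182 without sgPRMT5-1 replicate 2, 116 without sgPRMT5-1 replicate 3, and 859 without sgWDR77-1 replicate 1. Ligand genes called fell from 2 to 1 without sgNeg replicate 2 or sgPRMT5-1 replicate 3, each time through PVR. For sgWDR77-1, 1333 genes were called, or 677 without sgNeg replicate 3, which also left 1 of the 2 ligand genes. For sgWDR77-2, 674 genes were called, or 444 without sgNeg replicate 1, 411 without sgWDR77-2 replicate 1, 393 without sgWDR77-2 replicate 2, and 1348 without sgWDR77-1 replicate 1. The 1 ligand gene called there, PVR, was lost without sgNeg replicate 1 or 2 and without any library of sgPRMT5-2 or sgWDR77-2, and without sgWDR77-1 replicate 1 the count was 2, with MICA added (adjusted p = 0.033). For sgPRMT5-2, no single library moved the 4361 genes called by over 1.5 times. Library sgWDR77-1 replicate 1 thus stood apart, since calls rose without it in comparisons it was not part of. Without it, NT5E (log2 fold change 0.50, adjusted p = 0.0159) and CD274 (0.58, adjusted p = 0.0438) were still called for sgWDR77-1 by limma voom.

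With both guides of a gene treated as 1 condition against sgNeg, 4 ligand genes were called for PRMT5, against 17% of all genes, and CD274, NT5E, and PVR rose while LGALS9 fell. The calls seen with sgPRMT5-2 alone for CD276 (limma voom, adjusted p = 0.0524 pooled), CD47 (0.104), MICA (0.132), and MICB (0.107) were not made. For WDR77 no ligand gene was called in this way by limma voom, against 3.39% of all genes, with adjusted p = 0.208 for CD274, 0.539 for NT5E, and 0.0868 for PVR. Guides to 1 gene are described apart, a choice made beforehand because an earlier analysis of these data found that they differ.

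**Figure D3:**
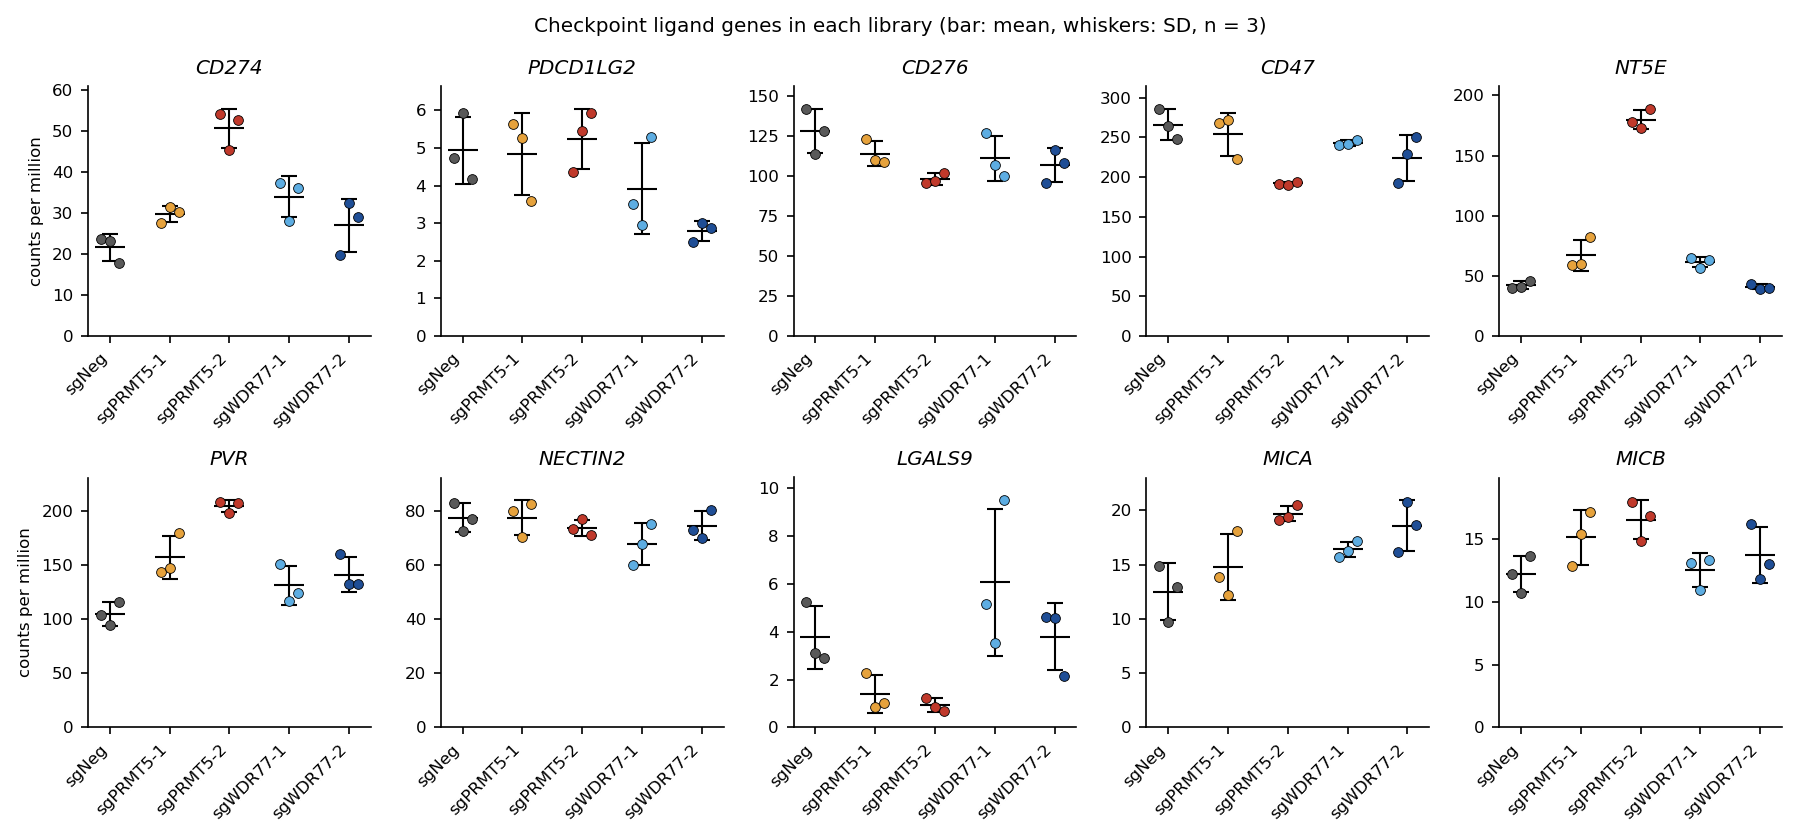
CPM of the 10 ligand genes in all 15 libraries by condition, 1 panel for each gene, with points for libraries, bars for the mean of 3, and whiskers for the SD. NT5E in the sgPRMT5-2 libraries (173 to 189 CPM) stood apart from all other conditions (39 to 82 CPM), while NECTIN2 covered similar ranges in all 5 conditions (60 to 83.1 CPM).

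Levels of different genes were compared as CPM per kilobase of exon, with all annotated exons of a gene joined. Which transcripts these cells use was not determined, so the order between genes depends on this length. In the sgNeg libraries the order of mean levels was CD47 (32.3), CD276 (23.3), NECTIN2 (20.7), PVR (10.1), NT5E (9.35), CD274 (5.25), MICB (4.35), MICA (3.24), PDCD1LG2 (2.03), and LGALS9 (0.658 CPM per kilobase). The replicate ranges of CD276 and NECTIN2, PVR and NT5E, CD274 and MICB, and MICB and MICA overlapped, so these neighbours did not differ beyond their spread. The order with sgPRMT5-1 was the same, with PVR (15) and NT5E (14.8 CPM per kilobase) overlapping. With sgPRMT5-2, NT5E led at 39.8 CPM per kilobase, ahead of CD47 (23.3), NECTIN2 (19.7), PVR (19.6), CD276 (17.9), and CD274 (12.3), and only NECTIN2 and PVR overlapped among these. With sgWDR77-1, NT5E (13.5) lay above PVR (12.5 CPM per kilobase) with overlapping ranges. With sgWDR77-2, PVR (13.6) lay above NT5E (9.01 CPM per kilobase) with no overlap, and NECTIN2 (19.9) and CD276 (19.4) overlapped. The summed level of the 10 genes was 639 to 716 CPM with sgNeg, 724 to 746 CPM with sgPRMT5-1, and 821 to 860 CPM with sgPRMT5-2, so the sums of both PRMT5 guides lay above sgNeg. Those with sgWDR77-1 (653 to 717 CPM) and sgWDR77-2 (624 to 678 CPM) overlapped it. These sums join genes that rose and genes that fell, so they show no general rise. With sgPRMT5-2 against sgNeg, mean CPM was 180 against 42.4 for NT5E and 204 against 105 for PVR. It was 192 against 266 for CD47 and 98.2 against 128 for CD276.

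**Figure D4:**
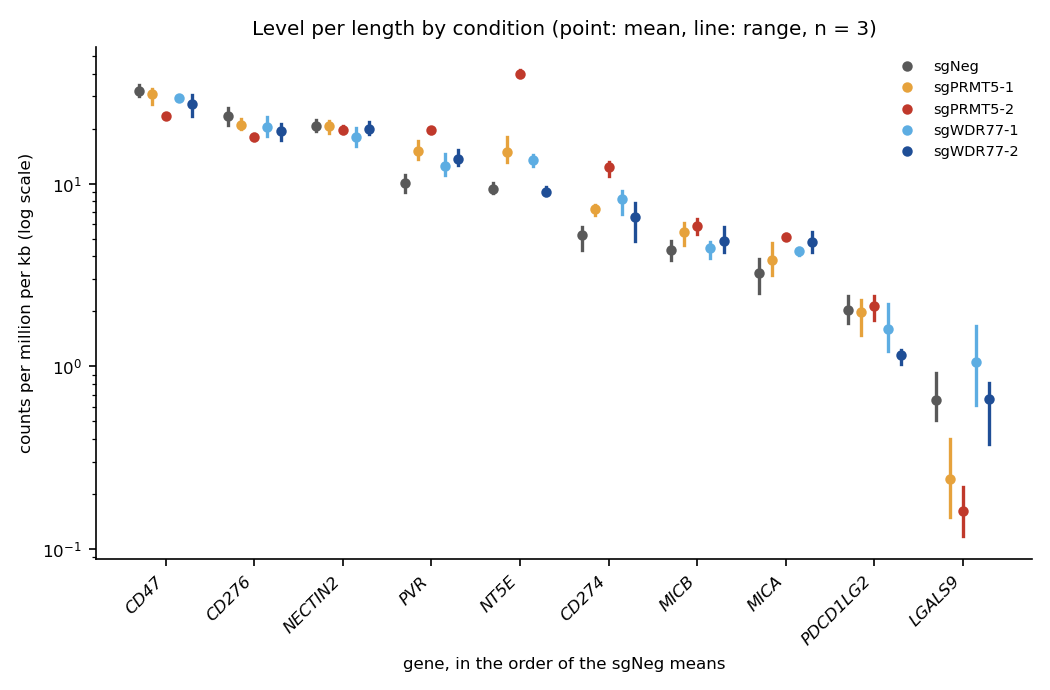
Mean CPM per kilobase of exon for each ligand gene in the 5 conditions on a log axis, with bars from the lowest to the highest of 3 libraries. CD47 was highest in every condition except sgPRMT5-2, where NT5E was highest at 39.8, and LGALS9 was lowest in all 5.

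CD274 (ENSG00000120217.14) lies at chr9:5450503-5470566 on the forward strand (hg38). Its level was 23.7, 23.2, and 17.8 CPM with sgNeg, 27.5, 31.4, and 30.3 CPM with sgPRMT5-1, and 54.1, 45.2, and 52.6 CPM with sgPRMT5-2. With sgWDR77-1 it was 37.3, 28.1, and 36.1 CPM, and with sgWDR77-2 it was 19.8, 32.3, and 29 CPM. The sgPRMT5-2 libraries were the highest of all 15, those of sgPRMT5-1 and sgWDR77-1 lay above sgNeg, and those of sgWDR77-2 overlapped it. CD274 rose 2.35-fold with sgPRMT5-2 (log2 fold change 1.23 ± 0.16, limma voom, adjusted p = 7.44e-06). It rose 1.56-fold with sgWDR77-1 (0.65 ± 0.169, adjusted p = 0.0185, limma voom), a call that was lost without sgNeg replicate 3 (adjusted p = 0.139) or with only the conditions compared in the fit (0.0628). The value with sgPRMT5-1 was 0.47 ± 0.17 (adjusted p = 0.15, limma voom) and that with sgWDR77-2 was 0.31 ± 0.175 (adjusted p = 0.341).

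The promoters of CD274, NT5E, and PVR are shown because these genes had the 3 smallest adjusted p-values among the ligand genes that rose together with sgPRMT5-2. They come from RefSeq (GRCh38.p14), with 250 bases before and 50 after the RefSeq start, and 9 of the 10 genes were matched. The windows are chr9:5450292-5450591 for CD274, chr6:85449833-85450132 for NT5E, and chr19:44643660-44643959 for PVR, all on the forward strand and written 5′ to 3′. Capitals mark matches on either strand to 6 motifs, which were the interferon-response core GAAANNGAA, the STAT palindrome TTCNNNGAA, the AP-1 motif TGANTCA, the cyclic AMP response element TGACGTCA, the E-box CACGTG, and the GC box GGGCGG.
CD274: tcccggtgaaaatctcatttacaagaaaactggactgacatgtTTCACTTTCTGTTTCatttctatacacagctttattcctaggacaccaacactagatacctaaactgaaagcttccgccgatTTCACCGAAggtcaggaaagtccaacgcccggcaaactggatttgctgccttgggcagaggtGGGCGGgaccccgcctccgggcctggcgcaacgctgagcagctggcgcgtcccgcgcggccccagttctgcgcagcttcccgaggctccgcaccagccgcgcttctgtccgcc
NT5E: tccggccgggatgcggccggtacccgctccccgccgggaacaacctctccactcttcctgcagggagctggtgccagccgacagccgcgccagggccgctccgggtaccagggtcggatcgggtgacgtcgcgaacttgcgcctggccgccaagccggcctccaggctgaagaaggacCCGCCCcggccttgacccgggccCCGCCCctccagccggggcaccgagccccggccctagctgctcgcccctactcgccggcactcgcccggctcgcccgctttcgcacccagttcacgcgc
PVR: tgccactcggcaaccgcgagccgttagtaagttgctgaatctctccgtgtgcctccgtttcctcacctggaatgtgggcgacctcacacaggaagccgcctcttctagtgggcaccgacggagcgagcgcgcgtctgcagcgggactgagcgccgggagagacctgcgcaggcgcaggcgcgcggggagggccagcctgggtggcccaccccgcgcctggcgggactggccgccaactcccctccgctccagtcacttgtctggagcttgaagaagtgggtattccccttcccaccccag
The CD274 window held 2 interferon-response cores that overlap each other, 1 STAT palindrome, and 1 GC box. These motifs occur in 8.11%, 7.66%, and 45% of the 35116 promoters of the same length. The NT5E window held 2 GC boxes, and the PVR window held none of the 6 motifs. Among the other ligand genes, LGALS9 had 1 interferon-response core and NECTIN2 had 1 cyclic AMP response element, which occurs in 1.85% of promoters. GC boxes were also in the windows of CD276 (7 and 2 in its 2 windows), CD47 (6), NECTIN2 (3), MICA (1), and MICB (1). The AP-1 motif (7.71% of promoters) and the E-box (7.26%) were in no window of these genes. A match is a description of the letters and does not show a bound site.

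Interferon gamma is a known inducer of CD274 and acts through JAK kinases and IRF1. Of 13 genes of this route, 12 were tested, and IRF9 had 0 counts in all libraries. With sgPRMT5-2, 2 rose and 4 fell, where 31% of all genes tested were called. The median log2 fold change was −0.12 against 0.01 for all genes. IRF1, a transcription factor of this route, fell by 0.86 on the log2 scale (limma voom, adjusted p = 5.28e-05), from a mean of 61.3 CPM with sgNeg to 33.8 CPM. STAT3, a transcription factor of cytokine signals, rose (log2 fold change 0.41, limma voom, adjusted p = 0.000976). The part of this route in the level of CD274 was not tested. Among the others, PTPN2, a phosphatase that dampens JAK signals, rose with sgPRMT5-2 (0.37, limma voom, adjusted p = 0.0107), which was lost without sgNeg replicate 3 (0.0704) or sgPRMT5-2 replicate 1 (0.0546) or 3 (0.0533) and with both guides pooled (0.131). With sgWDR77-1, 2 rose and 1 fell, where 9.48% of all genes tested were called. JAK1, a receptor kinase, was among those that rose with sgWDR77-1 (0.34, limma voom, adjusted p = 0.0159), and this was lost without sgNeg replicate 2 (0.0528) or 3 (0.0654), with only the conditions compared (0.123), and with both guides pooled (0.302). With sgPRMT5-1 limma voom called 0 of the 12, 1 had an unadjusted p under 0.05, and limma-trend called 0.

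The PD-L1 protein is stabilised or removed by a further set of proteins, and all 9 genes of this list were tested. With sgPRMT5-2, 3 rose and 2 fell, where 31% of all genes tested were called. The median log2 fold change was 0.20 against 0.01 for all genes. B3GNT3, a glycosyltransferase that modifies PD-L1, fell by 0.50 on the log2 scale with sgPRMT5-2 (limma voom, adjusted p = 0.00669) and by 0.56 with sgWDR77-2 (adjusted p = 0.0167). The latter call was lost without sgNeg replicate 2 (0.0518), sgWDR77-2 replicate 1 (0.0885), or sgWDR77-2 replicate 3 (0.0507), and with both guides pooled (0.0605). COPS5, a subunit of the deneddylating COP9 signalosome, rose with sgPRMT5-2 (0.38, limma voom, adjusted p = 0.00686, or 0.0521 without sgNeg replicate 1 and 0.227 with both guides pooled). It fell by 0.48 with sgWDR77-1 (adjusted p = 0.00755, limma voom, or 0.0962 with only the conditions compared and 0.663 with both guides pooled), where it was the 1 gene called. The other genes that rose with sgPRMT5-2 were SPOP, an adaptor of a ubiquitin ligase (0.29, limma voom, adjusted p = 0.0261), and CSNK2A2, a kinase (0.34, adjusted p = 0.023). SPOP was lost without sgNeg replicate 2 (0.153) or 3 (0.0531), without sgPRMT5-2 replicate 1 (0.112) or 3 (0.124), with library totals alone (0.113), and with both guides pooled (0.0636). CSNK2A2 was lost without sgNeg replicate 2 (0.0913) or 3 (0.0834), without sgPRMT5-2 replicate 1 (0.109) or 2 (0.114), with library totals alone (0.0738), and with both guides pooled (0.153). CMTM4, a membrane protein that protects PD-L1, fell by 0.36 with sgPRMT5-2 (limma voom, adjusted p = 0.0112, or 0.055 without sgNeg replicate 2 and 0.0877 with both guides pooled). With sgPRMT5-1 limma voom called 0 of the 9, 2 had an unadjusted p under 0.05, and limma-trend called 0.

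Within 500 kb of the start of CD274 lay the starts of 31 genes, of which 8 were tested. ERMP1, a peptidase of the endoplasmic reticulum that starts 429 kb from CD274, fell by 0.57 on the log2 scale with sgPRMT5-2 (limma voom, adjusted p = 0.000634, or 0.0754 with both guides pooled), so it moved against CD274. PLGRKT, a plasminogen receptor and the nearest of the 8 at 12.6 kb upstream, had a log2 fold change of −0.16 with sgPRMT5-2 (limma voom, adjusted p = 0.387), and JAK2, a kinase of the interferon route at 466.1 kb upstream, had −0.10 (adjusted p = 0.715). RIC1, a factor of Golgi traffic at 178.5 kb, rose with sgWDR77-1 (0.29, limma voom, adjusted p = 0.0489) and with sgWDR77-2 (0.33, adjusted p = 0.0435). For sgWDR77-1 the RIC1 call was lost without 12 of the libraries taken singly (adjusted p = 0.0524 to 0.265, limma voom) and kept only without sgNeg replicate 2, sgPRMT5-1 replicate 1, or sgWDR77-1 replicate 1. For sgWDR77-2 it was also lost without 12 (0.0532 to 0.238) and kept only without sgPRMT5-1 replicate 2, sgWDR77-1 replicate 1, or sgWDR77-1 replicate 3. With both guides pooled RIC1 was not called (0.088), and with only the conditions compared it was called for neither guide (0.163 and 0.0671). Counting these, 4 alternatives other than a left-out library ended the call for sgWDR77-1, and 5 ended that for sgWDR77-2.

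PDCD1LG2 (ENSG00000197646.8, chr9:5510531-5571282, forward strand) starts 60 kb from CD274. It was a gene of low counts, with 13 to 37 in each library and 2.5 to 5.92 CPM. Its levels with sgPRMT5-1 (3.6 to 5.65 CPM), sgPRMT5-2 (4.35 to 5.92), and sgWDR77-1 (2.96 to 5.29) overlapped those with sgNeg (4.17 to 5.92), and those with sgWDR77-2 (2.5 to 3) lay below. No guide passed the test against sgNeg, with log2 fold changes of 0.07 with sgPRMT5-2 (limma voom, adjusted p = 0.864) and −0.79 ± 0.305 with sgWDR77-2 (adjusted p = 0.143). The change seen for CD274 with sgPRMT5-2 was thus not seen for its neighbour, although a difference between the genes was not tested.

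CD276 (ENSG00000103855.18, chr15:73683966-73714514, forward strand) stood at 114 to 142 CPM with sgNeg and 95.5 to 102 CPM with sgPRMT5-2. The 3 sgPRMT5-2 libraries lay below all sgNeg libraries, and the other guides overlapped sgNeg. CD276 fell by 0.38 ± 0.107 on the log2 scale with sgPRMT5-2 (limma voom, adjusted p = 0.0105). The values with the other guides ran from −0.26 to −0.16, and none passed (adjusted p = 0.174 to 0.465, limma voom).

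Among 17 other B7 and TNF superfamily ligands and adhesion proteins that T cells bind, 9 were tested. ICAM1, which T cells and NK cells bind through an integrin, rose with sgPRMT5-1 (log2 fold change 0.71, limma voom, adjusted p = 0.00426), with sgPRMT5-2 (0.97, adjusted p = 1.34e-05), and with sgWDR77-1 (0.96, adjusted p = 7.8e-05, or 0.0518 with both guides pooled). Its mean level was 135 CPM with sgNeg, 218 with sgPRMT5-1, 261 with sgPRMT5-2, 260 with sgWDR77-1, and 178 with sgWDR77-2. NCR3LG1 (B7-H6), a ligand of the NK cell receptor NKp30, rose with sgPRMT5-2 (0.86, limma voom, adjusted p = 0.000683, or 0.0613 with both guides pooled), as did CD58 (0.58, adjusted p = 0.00279), a ligand of CD2. VTCN1 (B7-H4), an inhibitory B7 protein, had 0 to 28 counts in a library and fell by 2.97 on the log2 scale with sgPRMT5-1 (limma voom, adjusted p = 0.0137), by 3.46 with sgPRMT5-2 (0.00102), and by 2.02 with sgWDR77-1 (0.026). The VTCN1 call for sgPRMT5-1 was lost without sgPRMT5-1 replicate 2 (0.0763) or 3 (0.1). That for sgWDR77-1 was lost without sgNeg replicate 1 (0.0738) or 3 (0.0676) and without sgWDR77-1 replicate 1 (0.0589), 2 (0.0625), or 3 (0.0562), and with only the conditions compared (0.0694). In all, 3 rose and 1 fell with sgPRMT5-2, and 1 rose and 1 fell with sgPRMT5-1 and with sgWDR77-1. Of all genes tested, 31%, 2.87%, and 9.48% were called in these comparisons. With sgWDR77-2 limma voom called 0 of the 9, 4 had an unadjusted p under 0.05, and limma-trend called 0.

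NT5E (ENSG00000135318.12) lies at chr6:85449584-85495791 on the forward strand. Its level was 40.1, 41.1, and 45.9 CPM with sgNeg, 59.4, 59.9, and 82 CPM with sgPRMT5-1, and 178, 173, and 189 CPM with sgPRMT5-2. With sgWDR77-1 it was 64.7, 56.6, and 62.8 CPM, and with sgWDR77-2 it was 43.1, 39, and 40.3 CPM. The sgPRMT5-2 libraries stood far above the rest, those of sgPRMT5-1 and sgWDR77-1 lay above all sgNeg libraries, and those of sgWDR77-2 overlapped sgNeg. NT5E rose 4.26-fold with sgPRMT5-2 (log2 fold change 2.09 ± 0.115, limma voom, adjusted p = 3.24e-11), the 4th smallest p among the 14056 genes in that comparison. It rose 1.57-fold with sgPRMT5-1 (0.65 ± 0.121, limma voom, adjusted p = 0.00384) and 1.45-fold with sgWDR77-1 (0.54 ± 0.123, adjusted p = 0.00826). With sgWDR77-2 the log2 fold change was −0.05 ± 0.129 (limma voom, adjusted p = 0.876), with a 95% interval from −0.32 to 0.22.

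Other genes of adenosine production, breakdown, transport, and sensing numbered 13, of which 8 were tested. With sgPRMT5-2, 2 rose and 2 fell, where 31% of all genes tested were called. The median log2 fold change was −0.50 against 0.01 for all genes. ADA, which breaks down adenosine, fell by 1.44 on the log2 scale (limma voom, adjusted p = 0.000265), from a mean of 13.8 CPM with sgNeg to 5.08 CPM with sgPRMT5-2. SLC29A2, a transporter that carries adenosine across the membrane, fell by 0.64 (limma voom, adjusted p = 0.00045, or 0.0558 with both guides pooled). ADORA2B, an adenosine receptor, rose (0.49, limma voom, adjusted p = 0.00377, or 0.111 with both guides pooled). ENTPD1 (CD39), whose product NT5E uses as its substrate, had 4 to 28 counts in a library and was not called with any guide. With sgWDR77-2, ADA was the 1 gene called and fell by 0.89 (limma voom, adjusted p = 0.0328). This call was lost without sgNeg replicate 1 (0.14) or 2 (0.06), without sgWDR77-2 replicate 1 (0.157) or 3 (0.0748), with no filter (0.0689), and with both guides pooled (0.0504). SLC29A1, another transporter of adenosine, rose with sgPRMT5-2 (0.34, limma voom, adjusted p = 0.0213) and was the 1 gene called with sgWDR77-1, where it fell by 0.37 (adjusted p = 0.0491). The call for sgPRMT5-2 was lost without sgNeg replicate 1 (0.102) or 2 (0.0776), without sgPRMT5-2 replicate 1 (0.066), 2 (0.0874), or 3 (0.07), with library totals alone (0.0683), and with both guides pooled (0.128). That for sgWDR77-1 was lost without 10 of the libraries taken singly (0.0502 to 0.164) and kept only without sgPRMT5-1 replicate 3, sgWDR77-1 replicate 1, or any sgWDR77-2 library. It was also lost with median-of-ratios scaling (0.0509), upper quartile scaling (0.13), no filter (0.0934), only the conditions compared (0.2), and both guides pooled (0.375). With sgPRMT5-1 limma voom called 0 of the 8, 1 had an unadjusted p under 0.05, and limma-trend called 0.

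PVR (ENSG00000073008.15, chr19:44643798-44666162, forward strand) stood at 104, 94.3, and 116 CPM with sgNeg, 143, 147, and 179 CPM with sgPRMT5-1, and 208, 198, and 207 CPM with sgPRMT5-2. With sgWDR77-1 it was 151, 117, and 124 CPM, and with sgWDR77-2 it was 160, 132, and 132 CPM. All 12 knockout libraries lay above the highest sgNeg library, and those of sgPRMT5-2 were the highest. PVR rose 1.96-fold with sgPRMT5-2 (log2 fold change 0.97 ± 0.114, limma voom, adjusted p = 1.97e-06) and 1.49-fold with sgPRMT5-1 (0.58 ± 0.115, adjusted p = 0.00663). The latter call was lost without sgNeg replicate 2 (adjusted p = 0.0512, limma voom) or sgPRMT5-1 replicate 3 (0.0768). It rose 1.35-fold with sgWDR77-2 (0.43 ± 0.116, limma voom, adjusted p = 0.0335), and with sgWDR77-1 the value was 0.32 ± 0.117 (adjusted p = 0.0926). The sgWDR77-2 call was lost without sgNeg replicate 1 (0.11) or 2 (0.165), without sgPRMT5-2 replicate 1 (0.0502), 2 (0.0592), or 3 (0.0505), without sgWDR77-2 replicate 1 (0.196), 2 (0.0696), or 3 (0.054), and with no filter (0.0593). PVR shares 121 of its 10427 exon bases with CEACAM19 on the same strand, a gene of 20 to 70 counts in a library, and 2028 with ENSG00000279095, which had 0 counts.

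NECTIN2 (ENSG00000130202.10, chr19:44846175-44889223, forward strand) shares its receptors with PVR and stood at 72.6 to 83.1 CPM with sgNeg. The ranges of all 4 guides overlapped this one. Its log2 fold changes ran from −0.20 with sgWDR77-1 to 0.00 with sgPRMT5-1, and none passed (limma voom, adjusted p = 0.263 to 0.996). Of 7 other nectins and nectin-like adhesion proteins, 4 were tested. With sgPRMT5-2, 2 fell, where 31% of all genes tested were called. The median there was −0.34 against 0.01 for all genes. NECTIN1, a cell adhesion protein of the same family, fell by 0.37 with sgPRMT5-2 (limma voom, adjusted p = 0.00229, or 0.17 with both guides pooled) and by 0.35 with sgWDR77-1 (adjusted p = 0.0112, or 0.157 with only the conditions compared and 0.112 with both guides pooled). CADM4, another adhesion protein, fell by 1.12 with sgPRMT5-2 (limma voom, adjusted p = 0.00512, or 0.128 with both guides pooled). With sgPRMT5-1 limma voom called 0 of the 4, 0 had an unadjusted p under 0.05, and limma-trend called 0. With sgWDR77-2 limma voom called 0, 1 had an unadjusted p under 0.05, and limma-trend called 0.

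CD47 (ENSG00000196776.17, chr3:108043091-108091862, reverse strand) stood at 286, 264, and 248 CPM with sgNeg, 268, 272, and 223 CPM with sgPRMT5-1, and 191, 190, and 194 CPM with sgPRMT5-2. With sgWDR77-1 it was 240, 242, and 247 CPM, and with sgWDR77-2 it was 193, 229, and 251 CPM. The sgPRMT5-2 libraries lay close together and below all sgNeg libraries, those of sgWDR77-1 lay just below, and the others overlapped sgNeg. CD47 fell by 0.47 ± 0.0994 on the log2 scale with sgPRMT5-2 (limma voom, adjusted p = 0.00106). The values with sgPRMT5-1, sgWDR77-1, and sgWDR77-2 were −0.07, −0.13, and −0.25 (limma voom, adjusted p = 0.759, 0.448, and 0.155).

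Of 6 partners of CD47 and other signals that restrain or invite engulfment, 5 were tested. CD24, a ligand of the macrophage receptor SIGLEC10, fell with all 4 guides, by 2.96 on the log2 scale with sgPRMT5-1 (limma voom, adjusted p = 8e-06), 3.07 with sgPRMT5-2 (4.8e-07), 1.07 with sgWDR77-1 (0.00208), and 1.11 with sgWDR77-2 (0.00236). Its mean was 18.4 CPM with sgNeg, 2.42 and 2.08 CPM with the PRMT5 guides, and 8.65 and 8.38 CPM with the WDR77 guides. CD24 has near-identical copies elsewhere in the genome, so its counts are uncertain. THBS1, a secreted ligand of CD47, rose with sgPRMT5-2 (1.07, limma voom, adjusted p = 1.28e-07) and with sgWDR77-2 (0.48, adjusted p = 0.00754). The latter call was lost without sgNeg replicate 1 (0.0805) or sgWDR77-2 replicate 1 (0.0679) and with both guides pooled (0.349). CALR, which invites engulfment when exposed on the surface, rose with sgWDR77-1 (0.36, limma voom, adjusted p = 0.0423). That call was lost without 10 of the libraries taken singly (0.05 to 0.15) and kept only without sgNeg replicate 1, sgPRMT5-1 replicate 3, sgWDR77-1 replicate 2 or 3, or sgWDR77-2 replicate 1. It was also lost with no filter (0.0526), limma-trend (0.0577), only the conditions compared (0.201), and both guides pooled (0.197). In all, 1 rose and 1 fell with sgPRMT5-2, sgWDR77-1, and sgWDR77-2, and 1 fell with sgPRMT5-1. Of all genes tested, 31%, 9.48%, 4.8%, and 2.87% were called in these comparisons.

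LGALS9 (ENSG00000168961.17, chr17:27629798-27649560, forward strand) was the lowest of the 10 genes per kilobase. It had 31, 19, and 16 counts in the sgNeg libraries, 15, 5, and 6 with sgPRMT5-1, and 8, 5, and 4 with sgPRMT5-2. With sgWDR77-1 it had 28, 19, and 52 counts, and with sgWDR77-2 it had 24, 26, and 12. In CPM the libraries of both PRMT5 guides (0.677 to 2.29) lay below those of sgNeg (2.9 to 5.25), and those of the WDR77 guides (2.16 to 9.49) overlapped them. LGALS9 fell by 1.92 ± 0.556 on the log2 scale with sgPRMT5-2 (limma voom, adjusted p = 0.0117). With sgPRMT5-1 the value was −1.44 ± 0.505 (adjusted p = 0.135, limma voom), and the values with sgWDR77-1 and sgWDR77-2 were 0.61 and −0.02 (adjusted p = 0.317 and 0.983). Its copies LGALS9B and LGALS9C had 0 to 1 counts and 0 counts in a library, and reads shared with a copy were not counted as unique.

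Of 11 other galectins and ligands of LAG3, TIM-3, or CEACAM receptors, 6 were tested, and LGALS7 and LGALS7B, near-identical copies of each other, had 0 counts. LGALS3 (galectin-3), which binds glycans on T cells, fell by 0.99 on the log2 scale with sgPRMT5-2 (limma voom, adjusted p = 1.53e-06) and by 0.43 with sgPRMT5-1 (adjusted p = 0.0342). The latter call was lost without sgNeg replicate 1 (0.136) or 2 (0.081) and without sgPRMT5-1 replicate 2 (0.102) or 3 (0.162). LGALS1 (galectin-1), which can kill activated T cells, rose with sgPRMT5-2 (0.59, limma voom, adjusted p = 0.000952). PTDSS1, an enzyme that makes phosphatidylserine, rose with sgPRMT5-2 as well (0.60, limma voom, adjusted p = 0.00183). In all, 2 rose and 1 fell with sgPRMT5-2, and 1 fell with sgPRMT5-1, where 31% and 2.87% of all genes tested were called. With sgWDR77-1 limma voom called 0 of the 6, 1 had an unadjusted p under 0.05, and limma-trend called 0. With sgWDR77-2 limma voom called 0, 0 had an unadjusted p under 0.05, and limma-trend called 0.

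MICA (ENSG00000204520.14, chr6:31399784-31415315) and MICB (ENSG00000204516.10, chr6:31494881-31511124) lie near each other on the forward strand. MICA stood at 14.9, 9.7, and 12.9 CPM with sgNeg, 13.9, 12.2, and 18.1 CPM with sgPRMT5-1, and 19.1, 19.4, and 20.5 CPM with sgPRMT5-2. With sgWDR77-1 it was 15.7, 16.3, and 17.2 CPM, and with sgWDR77-2 it was 16.2, 20.8, and 18.7 CPM. Libraries of sgPRMT5-2 and of both WDR77 guides lay above all sgNeg libraries, and those of sgPRMT5-1 overlapped them. MICA rose 1.6-fold with sgPRMT5-2 (log2 fold change 0.68 ± 0.173, limma voom, adjusted p = 0.00512), a call lost without sgNeg replicate 2 (0.0532). The values with sgWDR77-2, sgWDR77-1, and sgPRMT5-1 were 0.59 ± 0.177, 0.41, and 0.24 (limma voom, adjusted p = 0.0569, 0.163, and 0.521).

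MICB stood at 12.2, 10.7, and 13.6 CPM with sgNeg and 17.9, 14.8, and 16.8 CPM with sgPRMT5-2, and ranges of the other guides overlapped sgNeg. It rose 1.36-fold with sgPRMT5-2 (log2 fold change 0.44 ± 0.169, limma voom, adjusted p = 0.0487). This call sat at the threshold and was lost without 13 of the libraries taken singly (0.0516 to 0.183), and it was kept only without sgWDR77-1 replicate 1 or sgWDR77-2 replicate 1. It was also lost with median-of-ratios scaling (0.0594), library totals alone (0.108), no filter (0.0934), and limma-trend (0.0602). Both genes are highly polymorphic, and the effect of the line's own alleles on the number of aligned reads was not tested.

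Of 11 other NKG2D ligands and proteins that shed them, 10 were tested. With sgPRMT5-2, 1 rose and 1 fell, where 31% of all genes tested were called. ADAM10, a protease that sheds such ligands, fell by 0.46 on the log2 scale (limma voom, adjusted p = 0.00453). ULBP3, another NKG2D ligand, rose (0.42, limma voom, adjusted p = 0.0424), but this was lost without 11 of the libraries taken singly (0.0507 to 0.256) and kept only without sgNeg replicate 3, sgPRMT5-1 replicate 3, or sgWDR77-1 replicate 1 or 3. It was also lost with median-of-ratios scaling (0.0523), library totals alone (0.0973), no filter (0.0906), limma-trend (0.0536), and both guides pooled (0.126). MMP14, a membrane protease that can shed MICA, fell by 0.58 with sgWDR77-2 (limma voom, adjusted p = 0.00193, or 0.134 with both guides pooled), the 1 call there. With sgPRMT5-1 limma voom called 0 of the 10, 1 had an unadjusted p under 0.05, and limma-trend called 0. With sgWDR77-1 limma voom called 0, 3 had an unadjusted p under 0.05, and limma-trend called 0.

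The guides of a gene were then compared with each other. Between sgPRMT5-2 and sgPRMT5-1, 4 ligand genes differed, against 7.54% of all genes, and the median log2 difference was 0.12 for the ligand genes and −0.01 for all genes. NT5E was higher with sgPRMT5-2 (log2 difference 1.44 ± 0.108, limma voom, adjusted p = 1.38e-08), and so were CD274 (0.77 ± 0.15, adjusted p = 0.00265) and PVR (0.39, adjusted p = 0.0322). CD47 was lower (−0.40, limma voom, adjusted p = 0.0159). PRMT5 transcript itself was not distinguished between these guides (0.22 ± 0.136, limma voom, adjusted p = 0.33). The PVR difference was lost without sgPRMT5-1 replicate 1 (0.188) or 2 (0.134) and without sgPRMT5-2 replicate 1 (0.108), 2 (0.0693), or 3 (0.115). That of CD47 was lost without the same libraries (0.0962, 0.0982, 0.0655, 0.0727, and 0.0502), so each of them left 2 ligand genes called. The 1060 genes called in all became 338 and 455 without sgPRMT5-1 replicates 1 and 2, 1651 without sgPRMT5-1 replicate 3, 455, 459, and 470 without sgPRMT5-2 replicates 1, 2, and 3, and 1980 without sgWDR77-1 replicate 1. With only the conditions compared, 2689 genes were called. There, and without sgPRMT5-1 replicate 3, the ligand genes called were 5, with MICA added. Whether the guides differ in editing or in effects on other genes was not tested.

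**Figure D5:**
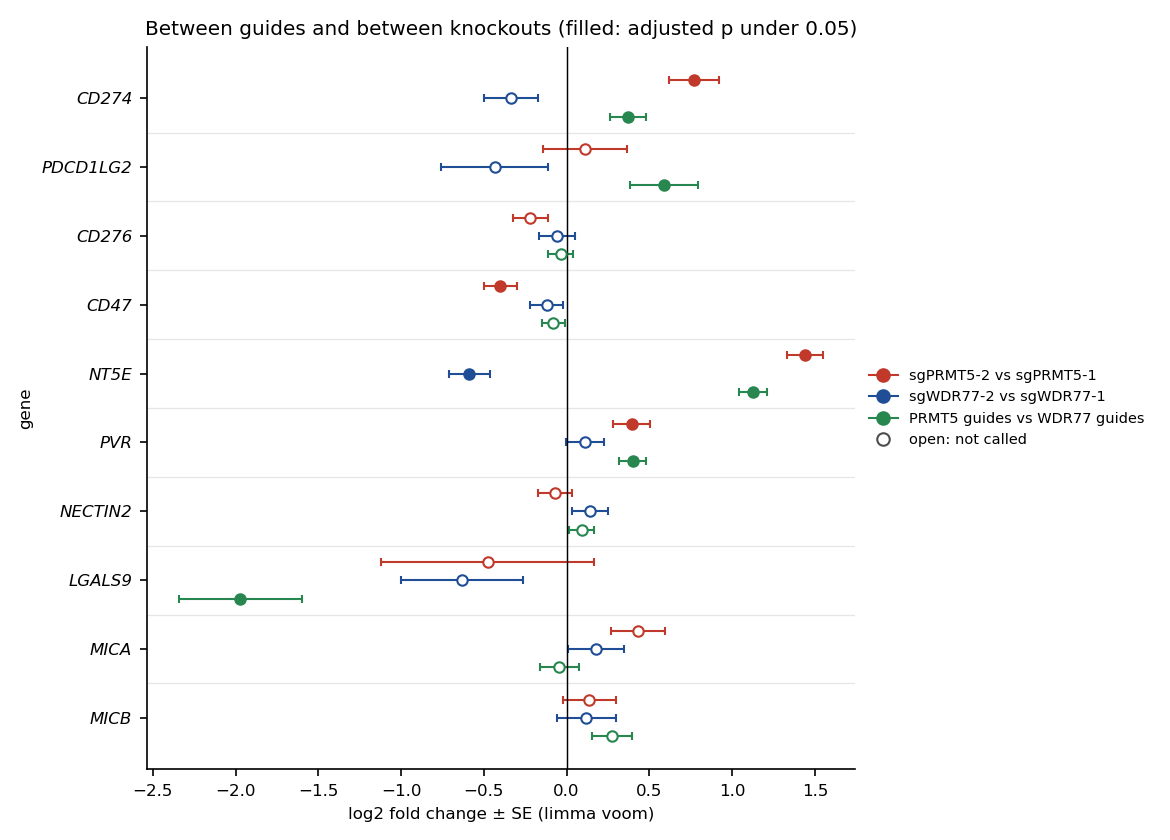
Log2 difference of each ligand gene between the guides of a gene and between the genes targeted, with bars for the SE and filled points for an adjusted p under 0.05 by limma voom. NT5E was higher with sgPRMT5-2 than with sgPRMT5-1 (1.44), lower with sgWDR77-2 than with sgWDR77-1 (−0.59), and higher with PRMT5 guides than with WDR77 guides (1.13).

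Between sgWDR77-2 and sgWDR77-1, 1 ligand gene differed, against 2.41% of all genes, with a median log2 difference of −0.09 for the ligand genes and 0.01 for all genes. NT5E was lower with sgWDR77-2 (−0.59 ± 0.125, limma voom, adjusted p = 0.0175), which was lost without sgWDR77-2 replicate 1 (0.0564) or 2 (0.073) and with only the conditions compared (0.145). WDR77 itself was also lower with sgWDR77-2 (−0.85 ± 0.178, limma voom, adjusted p = 0.0157), a call lost without sgWDR77-2 replicate 1 (0.0675) or 2 (0.0621) and with only the conditions compared (0.177). The 339 genes called in all became 168, 155, and 158 without sgPRMT5-2 replicates 1, 2, and 3, and 45 and 85 without sgWDR77-2 replicates 1 and 2. With only the conditions compared, 17 genes were called.

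The PRMT5 guides together were compared with the WDR77 guides together, 2 guides and 6 libraries a side, and 5 ligand genes differed, against 27.1% of all genes. The median log2 difference was 0.18 for the ligand genes and 0.02 for all genes. NT5E (1.13 ± 0.0826, limma voom, adjusted p = 5.2e-09), PVR (0.40 ± 0.0798, adjusted p = 0.000921), PDCD1LG2 (0.59 ± 0.205, adjusted p = 0.0363), and CD274 (0.37 ± 0.111, adjusted p = 0.0168) were higher on average over the PRMT5 guides. LGALS9 was lower (−1.97 ± 0.371, limma voom, adjusted p = 0.000523). For each of these genes the ranges of the PRMT5 and WDR77 libraries overlapped. The averages hide differences between guides, and the SE holds the spread of libraries within a guide only. CD274 was lower with sgPRMT5-1 (mean 29.7 CPM) than with sgWDR77-1 (33.9 CPM), opposite to the average, with overlapping ranges. NT5E with sgPRMT5-1 (59.4 to 82 CPM) also overlapped sgWDR77-1 (56.6 to 64.7 CPM). The CD274 difference was lost without sgPRMT5-2 replicate 1 (0.0585) or 3 (0.0542), sgWDR77-1 replicate 2 (0.0557), or sgWDR77-2 replicate 1 (0.0538). That of PDCD1LG2 was lost without 9 of the libraries taken singly (0.0649 to 0.101) and kept only without an sgNeg library, sgPRMT5-1 replicate 3, sgPRMT5-2 replicate 1, or sgWDR77-1 replicate 3, and it was lost with library totals alone (0.0658) and with no filter (0.0576). Both were lost without sgPRMT5-2 replicate 3 or sgWDR77-1 replicate 2, which left 3 ligand genes called. Both were also lost without sgWDR77-2 replicate 1, where 4 ligand genes were called, with MICB added. Of the 12 tested genes of the interferon gamma route, 5 were lower with the PRMT5 guides and 0 higher by limma voom.

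For each ligand gene called against sgNeg, the genes with the most similar pattern were found by Pearson's r of log2 CPM over the 15 libraries, among the other genes with a mean count of at least 50. These values follow the conditions and are a description. CD274 was nearest to ITCH (r = 0.929), SPRY4 (0.913), and TMEM156 (0.908), and NT5E to PHLDA1 (0.97), AMOTL1 (0.954), and SMURF2 (0.947). PVR was nearest to WDR1 (0.977), followed by TARS1 and LTBR. CD47 was nearest to AIG1 (0.947), TCTN1 (0.945), and CD9 (0.944), and CD276 to TSPAN3 (0.95), HTATIP2 (0.919), and AMZ2 (0.91). LGALS9 was nearest to VPS13D (0.929), OAS2 (0.912), and TRIM14 (0.908). MICA was nearest to RPL38 (0.94) and YTHDF2 (0.871), and MICB to HCCS (0.921), PSMD8 (0.903), and PNMA1 (0.896).

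The receptors of these ligands are carried by T, NK, and myeloid cells, which a cell line should lack. Of 12 such genes, 2 were tested, and PDCD1, CTLA4, and CD28 had 0 counts in all libraries. SIRPA was the most abundant (110 counts on average) and CD96 had at most 8 counts. For each guide against sgNeg, limma voom called 0 of the 2, 0 had an unadjusted p under 0.05, and limma-trend called 0. The 12 leukocyte markers summed to 1.45 to 2.14 CPM with sgNeg, and to 2.55 to 3.67 with sgPRMT5-1 and 2.41 to 4.2 with sgWDR77-1, which did not overlap sgNeg. The sums with sgPRMT5-2 (2.02 to 4.06 CPM) and sgWDR77-2 (1.8 to 3.66 CPM) overlapped it. CD3D, CD3E, and MS4A1 were at 0 in all, PTPRC had at most 1 count, and the most abundant was ITGAM with at most 13 counts. Of the 2 leukocyte markers tested, 1 rose with sgPRMT5-2 and 1 with sgWDR77-1, where 31% and 9.48% of all genes tested were called. The call for sgPRMT5-2 was lost without sgNeg replicate 2 (limma voom, adjusted p = 0.119) or 3 (0.0657), without sgPRMT5-2 replicate 2 (0.0738) or 3 (0.0517), and with both guides pooled (0.0677). That for sgWDR77-1 was lost without 10 of the libraries taken singly (0.053 to 0.149) and kept only without sgPRMT5-1 replicate 2 or 3, sgWDR77-1 replicate 2, or sgWDR77-2 replicate 1 or 3. It was also lost with no filter (0.0552), only the conditions compared (0.131), and both guides pooled (0.1).

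Keratinocyte markers were abundant, with 7 of 8 tested and sums of 1690 to 2690 CPM led by KRT17. The mean sums were 2410 CPM with sgNeg, 2180 with sgPRMT5-1, 1730 with sgPRMT5-2, 1950 with sgWDR77-1, and 2540 with sgWDR77-2. KRT5, a basal keratin, fell with all 4 guides, with log2 fold changes of −1.27, −3.53, −4.02, and −2.82 in that order (limma voom, adjusted p = 1.22e-05, 1.07e-12, 5.92e-13, and 4.64e-11). KRT6A, a keratin of activated epidermis, also fell with all 4 guides, and KRT17 rose with sgWDR77-2 (0.83, limma voom, adjusted p = 2.65e-06, or 0.317 with both guides pooled). DSG3, a desmosomal protein, fell with all 4 guides as well, and its call for sgPRMT5-1 was lost without sgNeg replicate 2 (limma voom, adjusted p = 0.0942) or 3 (0.0709), without sgPRMT5-1 replicate 2 (0.145) or 3 (0.0861), and with no filter (0.0503). CDH1, an epithelial cadherin, rose with sgPRMT5-2, sgWDR77-1, and sgWDR77-2, where the last call was lost without sgNeg replicate 2 (0.0626) or sgWDR77-2 replicate 2 (0.0563). In all, 3 of the 7 fell with each guide, and 0, 1, 1, and 2 rose. Of all genes tested, 2.87%, 31%, 9.48%, and 4.8% were called in these comparisons. KRT14, the partner of KRT5, had at most 4 counts. Fibroblast markers (7 genes) summed to 6.68 to 16.2 CPM, led by COL1A1, with 1 gene at 0. Melanocyte markers (4 genes) summed to 2.55 to 7.48 CPM, led by PMEL, and endothelial markers (4 genes) to 12.7 to 36.1 CPM, led by CDH5, with 2 and 1 of their genes at 0.

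Some of these markers moved with the guides. CDH5, an endothelial cadherin, rose with sgWDR77-1 (0.80, limma voom, adjusted p = 0.00325, or 0.505 with both guides pooled), and the endothelial sum was 31.3 to 36.1 CPM there against 16.6 to 24.9 CPM with sgNeg. CDH5 made up most of this sum (mean 31.7 of 33.9 CPM), and VWF, the other endothelial marker tested, had a log2 fold change of −0.46 with sgWDR77-1 (limma voom, adjusted p = 0.538). With sgPRMT5-2, VWF, a clotting protein of endothelium, had a log2 fold change of −2.28 (limma voom, adjusted p = 0.00389). PMEL, a pigment cell protein, had −1.41 (limma voom, adjusted p = 0.0162, or 0.0531 without sgNeg replicate 1 and 0.122 without sgPRMT5-2 replicate 2). MLANA, the other melanocyte marker tested, had 0.74 (limma voom, adjusted p = 0.27), with all 3 libraries above sgNeg. COL1A1, a collagen, had −0.65 (limma voom, adjusted p = 0.0477), a call lost without 7 of the libraries taken singly (0.0513 to 0.19) and kept only without sgNeg replicate 3, sgPRMT5-1 replicate 1 or 2, sgPRMT5-2 replicate 3, sgWDR77-1 replicate 1 or 3, or sgWDR77-2 replicate 1 or 2. It was also lost with upper quartile scaling (0.0673), no filter (0.102), limma-trend (0.0561), and both guides pooled (0.0977). The part of these markers in the ligand results was not tested.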

How the data were processed

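RNA-seq of 15 HSC-5 libraries was analysed, with conditions taken from the sample labels. STAR and HTSeq are named for hg38 in the processing notes of the authors, and what they deposited is an unscaled count for each gene and sample. The labels name a stranded library kit and the methods an unstranded one, and the strand setting and annotation release are not given in the sources used here, so reads of overlapping and antisense genes cannot be told apart. Entries that name no gene were left out of library sizes (no feature 2.75% to 7.16% of reads, ambiguous 7.09% to 7.93%, not unique 9.49% to 13.1%).

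Genes with a mean normalised count of at least 3 were tested by limma voom (limma 3.58.1, R 4.3.3) after TMM scaling (trims of 0.3 and 0.05), in 1 fit over the 5 conditions and 7 comparisons, with Benjamini-Hochberg adjustment over the 14056 genes tested and a threshold of 0.05. The authors used DESeq2, and whether they pooled the guides of a gene is not given. DESeq2 and edgeR were not used here, because the check of file units could not read these headerless files as counts, and limma voom stood in for them. The code was tested on simulated data. Replicates differed by more than counting noise in all 15 pairs (chi-square per degree of freedom 1.55 to 17.7). Alternatives were other scalings, filters, a replicate block, limma-trend, only the conditions compared, both guides pooled, and each library left out in turn.

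Lengths and positions came from GENCODE (99.77% of identifiers matched) and promoters from RefSeq. Named were the ligand genes, PRMT5, WDR77, up to 3 called genes per list with the smallest adjusted p in any comparison of a guide with sgNeg, genes within 500 kb of CD274, and the 3 genes most like each called ligand gene. Some genes that these rules select are not reported here. CD58, SPOP, CSNK2A2, PTPN2, JAK1, SLC29A1, DSG3, CDH1, ENTPD1, IRF9, ENSG00000279095, KRT14, the copies of galectin genes, and the markers and receptors given by their counts were named after their values were seen. PRMT5-AS1 and ENSG00000243960 were also named after their values were seen. The members and lists were chosen with earlier results of these data known.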

Additional observations from a re-analysis of the deposited data

Results flagged for a closer look

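A test of the difference between conditions found 10 cases in which a ligand gene did not respond alike. Between the PRMT5 guides, the log2 difference of sgPRMT5-2 from sgPRMT5-1 was 0.77 for CD274, 1.44 for NT5E, 0.39 for PVR, and −0.40 for CD47. Between the WDR77 guides, NT5E differed by −0.59 (sgWDR77-2 less sgWDR77-1). Between the PRMT5 guides and the WDR77 guides, the log2 difference was 0.37 for CD274, 0.59 for PDCD1LG2, 1.13 for NT5E, 0.40 for PVR, and −1.97 for LGALS9. Among these, the calls of CD274 and NT5E between the PRMT5 guides, and of NT5E, PVR, and LGALS9 between the knockouts, were kept under every alternative run. Between the knockouts no alternative left out a whole guide, so dependence on 1 guide was not tested. Mean NT5E was 180 CPM with sgPRMT5-2, 67.1 with sgPRMT5-1, and 61.4 with sgWDR77-1. PVR with sgPRMT5-1 (143 to 179 CPM) overlapped sgWDR77-2 (132 to 160 CPM). Mean LGALS9 was lower with both PRMT5 guides (1.39 and 0.923 CPM) than with the WDR77 guides (6.06 and 3.79 CPM).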

How the results depend on the processing

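Among the calls of ligand genes against sgNeg, those of NT5E with both PRMT5 guides, and of CD274, PVR, and LGALS9 with sgPRMT5-2, were kept under every alternative run. For the 10 ligand genes, PRMT5, and WDR77, other settings gave 690 results on the same side of the threshold with the same direction, 17 that lost and 4 that gained a call, and 9 reversed. With 1 library left out the counts were 1187, 52, 3, and 18. The cause was not tested. Low counts of LGALS9 and PDCD1LG2 limit what can be seen for them. The edgeR quasi-likelihood and DESeq2 alternatives were not run.

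With both guides pooled, genes called were 2397 for PRMT5 (4 ligand genes) and 477 for WDR77 (0 ligand genes). With only the conditions compared, genes called were 385 for sgWDR77-1 (1 ligand gene), 2689 between the PRMT5 guides (5 ligand genes), and 17 between the WDR77 guides (0 ligand genes). Ligand genes called for sgWDR77-2 were 2 with upper quartile scaling and 0 with no filter. Library totals alone gave 220 genes between the WDR77 guides.

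The share of calls that were higher moved with scaling. It was 43.8% for sgPRMT5-1 against 27.1% by totals, and 52.6% for sgPRMT5-2 against 62.9% by upper quartile and 37.9% by totals. It was 37.7% for sgWDR77-1 against 52% by upper quartile, 47.2% between the PRMT5 guides against 59.1% by upper quartile, 76.4% between the WDR77 guides against 60% by totals, and 57.8% between the knockouts against 41% by totals. The shift of the median of all genes was at most 0.1.

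Leaving out 1 library gave 116 to 859 genes called for sgPRMT5-1 (1 to 2 ligand genes), 3109 to 5289 for sgPRMT5-2 (6 to 8), 677 to 1496 for sgWDR77-1 (1 to 2), 393 to 1348 for sgWDR77-2 (0 to 2), 338 to 1980 between the PRMT5 guides (2 to 5), 45 to 505 between the WDR77 guides (0 to 1), and 2872 to 4351 between the knockouts (3 to 5).

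Direction reversed only for values that were not called, though not all of them were near 0. Upper quartile scaling gave 0.0246 for NECTIN2 with sgPRMT5-1 and 0.039 for PRMT5 with sgWDR77-1. Library totals gave −0.0172 for PDCD1LG2 and −0.0203 for WDR77 with sgPRMT5-2. Only the conditions compared gave 0.0102 for PRMT5 with sgWDR77-1. Pooling the PRMT5 guides gave 0.001 for PDCD1LG2, against −0.0414 with sgPRMT5-1 alone. Pooling the WDR77 guides gave 0.1178 for PRMT5, against −0.0184 with sgWDR77-1 alone. It gave 0.2421 for NT5E and 0.2925 for LGALS9, against −0.0513 and −0.0233 with sgWDR77-2 alone. In each of these cases the other guide of the gene had the direction of the pooled value.

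With 1 library left out, values ran from −0.1401 to 0.0274 for CD276 and −0.0125 to 0.2011 for MICB between the WDR77 guides. They ran from −0.2385 to 0.3059 for LGALS9 with sgWDR77-2, and from −0.052 to 0.1143 for MICB and −0.1379 to 0.059 for PRMT5 with sgWDR77-1. With sgPRMT5-1 the range was −0.081 to 0.05 for NECTIN2 and −0.1902 to 0.1165 for PDCD1LG2, and with sgPRMT5-2 it was −0.0693 to 0.2034 for PDCD1LG2. Between the PRMT5 guides it was −0.0643 to 0.2469 for PDCD1LG2 and −0.2002 to 3e-04 for WDR77.

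Replicate numbers did not pair the libraries. Residuals of 30 pairs with the same number had r of −0.209 to 0.175 (median −0.0089), with 2 over 0.1. The 60 pairs with other numbers had r of −0.147 to 0.299 (median −0.00037), with 4 over 0.1. Across conditions, 7 of 15 libraries correlated best with their own number. With the replicate block, genes called were 342, 4239, 1193, and 592 for the guides in order, 1002 and 237 between guides, and 3711 between the knockouts, and the ligand genes called were 2, 8, 2, 1, 4, 1, and 5 in these comparisons. The block ended the calls of LGALS3 with sgPRMT5-1 (0.0529), ADA with sgWDR77-2 (0.0517), ULBP3 with sgPRMT5-2 (0.0529), COL1A1 with sgPRMT5-2 (0.0691), SLC29A1 with sgWDR77-1 (0.0625), DSG3 with sgPRMT5-1 (0.051), and RIC1 with sgWDR77-1 (0.0622) and sgWDR77-2 (0.0584).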
